A study of Mus musculus with 9 samples.

Results

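The ISG15 conjugation system was examined as 5 genes, chosen by name for their role in attaching the ubiquitin-like protein ISG15 to other proteins and removing it again, among the 54838 gene identifiers quantified in the intestinal organoid RNA-seq series. They are Isg15, the modifier itself, Uba7, its E1 activating enzyme, Ube2l6, its E2 conjugating enzyme, Herc6, the HERC-family E3 ligase that carries out ISGylation in mice, and Usp18, the protease that takes ISG15 off its targets. All organoids came from Vil-CreERT2;Mettl3 fl/fl mice of strain C57BL/6, in which the Villin promoter drives a tamoxifen-activated Cre in intestinal epithelium and both Mettl3 alleles carry loxP sites. Controls received ethanol (EtOH) and the others 4-hydroxytamoxifen (4-OHT, 500 nM) for 2 days, each in the presence of DMSO or of Nec-1 (necrostatin-1, an inhibitor of the kinase RIPK1). A legend of the study gives DMSO or Nec-1 for 5 days and Nec-1 at 5 µM, where its methods give 10 µM. The libraries comprised 2 of EtOH DMSO, 2 of EtOH Nec-1, 2 of 4-OHT DMSO and 1 of 4-OHT Nec-1, and 2 ATF3 CUT&Tag samples were not used here. The mice were 2 to 4 months old, all organoids carried the same transgene and floxed alleles, and no library here had 4-OHT without the floxed alleles, so that effects of 4-OHT, Cre and loss of Mettl3 cannot be told apart.

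ISG15 is made of a pair of ubiquitin-like domains and is among the genes that type I and type III interferons induce most strongly. It is attached to lysines of newly made proteins by an E1, E2 and E3 cascade parallel to that of ubiquitin, and it is also released from cells as a free protein. USP18 both cleaves ISG15 conjugates and binds the interferon receptor subunit IFNAR2, where it dampens signalling, and the genes of the whole cascade are themselves interferon-stimulated.

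The values were FPKM (fragments mapped per unit of transcript length and of library size), a per-length unit that allows levels of different genes to be compared. Over the 7 libraries the FPKM of all genes summed to between 450207 and 498712, and 11559 to 12038 genes reached 1 FPKM. The 10 epithelial markers summed to 3012 to 3248 FPKM in the EtOH libraries and to 3931 to 4592 in the 4-OHT libraries, sums made up mostly of Lyz1 and Krt8. Between 4-OHT DMSO and EtOH DMSO, 6 of these markers were called higher and 3 lower by limma. Of the 12702 genes tested, 24.5% were called higher and 16.7% lower. Among the markers called lower, Fabp2 read 200 and 161 FPKM with EtOH DMSO, then 140 and 123 with 4-OHT DMSO. The others were the enterocyte marker Alpi (75.96 and 78.06, then 22.3 and 30.3) and the stem cell marker Lgr5 (1.26 and 1.52, then 0.565 and 0.468). In contrast, 8 of the 10 immune markers and 7 of the 8 stromal and endothelial markers stayed under 0.3 FPKM in every library. The pan-leukocyte gene Ptprc was at no more than 0.0497 FPKM. The summed immune markers were 2.81 to 4.08 FPKM in the EtOH libraries and 6.52 to 8.72 in the 4-OHT libraries. Itgam and Cd68 were the markers above 0.3 FPKM, and they went in opposite directions. Cd68 read 0.774 and 2.01 FPKM with EtOH DMSO and 5.69 and 7.72 with 4-OHT DMSO. For Itgam the values were 1.96 and 1.19, then 0.315 and 0.917. The part of either marker set in the results was not tested. Mettl3, which encodes an RNA m6A methyltransferase, read 2.70 and 2.71 FPKM with EtOH DMSO, 2.41 and 2.47 with EtOH Nec-1, 3.72 and 4.14 with 4-OHT DMSO and 3.36 with 4-OHT Nec-1. The gene was thus not lower in the libraries labelled 4-OHT (log2 fold change 0.41, SE 0.098, adjusted p = 0.0231 by limma), and this call was lost in 8 of 16 alternatives (adjusted p up to 0.0908), 5 of which left out 1 library: 4-OHT DMSO replicate 2 or any 1 EtOH library. A gene-level FPKM also counts the exons that Cre does not remove, so that it does not check the deletion, and the groups are named here by the labels of their libraries.

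Gene positions and the promoters of 4 of the 5 genes were read from RefSeq tables (assembly GRCm38.p6, the build that the files' mm10 names), with positions counted back from the transcription start at -1 over 250 bases. Usp18 (chromosome 6, 121245906 to 121270917) was named only. Interferon-stimulated response elements (ISREs), which interferon-activated transcription factors bind, hold the tetranucleotide GAAA repeated after a gap of 2 bases. Searched on both strands, 978 of 32851 promoters in the table (2.98%) held this repeat within 250 bases. The shorter IRF pattern AANNGAAA, which every such repeat contains, was on either strand of 21.3% of them. The promoters of Isg15 (chr4:156200819-156201068, minus strand) and Uba7 (chr9:107975317-107975566, plus strand) are printed because they hold such matches, with the matched bases in capitals:
Isg15: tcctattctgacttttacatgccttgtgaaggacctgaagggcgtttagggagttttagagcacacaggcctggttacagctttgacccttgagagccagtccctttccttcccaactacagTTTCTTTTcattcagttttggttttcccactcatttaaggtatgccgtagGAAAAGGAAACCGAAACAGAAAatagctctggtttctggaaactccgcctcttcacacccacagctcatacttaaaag
Uba7: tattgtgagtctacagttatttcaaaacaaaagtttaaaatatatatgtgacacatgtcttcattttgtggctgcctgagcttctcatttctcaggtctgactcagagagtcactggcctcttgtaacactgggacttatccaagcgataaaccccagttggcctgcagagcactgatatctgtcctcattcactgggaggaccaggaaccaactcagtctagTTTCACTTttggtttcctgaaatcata
In Isg15 the ISRE repeat occurred 3 times in overlapping copies, from -78 to -69, from -72 to -63 and from -66 to -57, all on the strand of the gene, and the IRF pattern occurred once more on the other strand from -128 to -121. Uba7 had the IRF pattern once, from -27 to -20 on the other strand, and no ISRE repeat. Neither pattern was found in the same window of Ube2l6 (chr2:84798578-84798827, plus strand) or Herc6 (chr6:57580742-57580991, plus strand). A match is a run of letters, not evidence of binding, and the absence of one speaks only of these windows.

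Isg15 was at or under 1.33 FPKM in every control and had the largest rise of the 5 genes on the log2(FPKM + 1) scale in the libraries labelled 4-OHT DMSO. Isg15 (ENSMUSG00000035692, chromosome 4, 156199424 to 156200818) read 1.15 and 0.578 FPKM with EtOH DMSO, 0.557 and 1.33 with EtOH Nec-1, 331 and 469 with 4-OHT DMSO, and 27.3 with 4-OHT Nec-1. Every 4-OHT library was above every EtOH library, as it was for 30.2% of the 12702 genes tested, and the single 4-OHT Nec-1 library lay between the EtOH and the 4-OHT DMSO libraries. Against EtOH DMSO the log2 fold change of FPKM + 1 in 4-OHT DMSO was 7.75 (SE 0.28, adjusted p = 0.000256, limma over 12702 genes). Ranked by FPKM among all genes, Isg15 stood at places 10867 to 13295 in the EtOH libraries, at 174 and 131 in the 4-OHT DMSO libraries, and at 1865 with 4-OHT Nec-1.

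The E1 and E2 enzymes rose by less than Isg15. In the controls the levels of Uba7 overlapped those of Isg15, while Ube2l6 was above both. Uba7 (ENSMUSG00000032596, chromosome 9, 107975567 to 107984056), which activates ISG15 with ATP and hands it to the E2, read 1.12 and 1.39 FPKM with EtOH DMSO, 1.11 and 1.29 with EtOH Nec-1, 4.48 and 6.25 with 4-OHT DMSO, and 1.94 with 4-OHT Nec-1. Its log2 fold change in 4-OHT DMSO over EtOH DMSO was 1.49 (SE 0.17, adjusted p = 0.00235, limma). Ube2l6 (ENSMUSG00000027078, chromosome 2, 84798828 to 84810003), the E2 that takes ISG15 from Uba7, read 3.91 and 3.35 FPKM with EtOH DMSO, 2.40 and 2.65 with EtOH Nec-1, 11.5 and 22.8 with 4-OHT DMSO, and 4.98 with 4-OHT Nec-1. It rose by 1.90 on the log2 scale (SE 0.30, adjusted p = 0.00613, limma), and among the 5 genes its 4-OHT DMSO libraries lay farthest apart, by 0.93 log2. Both genes shared with 30.2% of all genes tested that every 4-OHT library was above every EtOH library.

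Herc6, the E3 ligase that transfers ISG15 to its targets, was the least abundant of the 5 genes in the libraries labelled 4-OHT. Herc6 (ENSMUSG00000029798, chromosome 6, 57580992 to 57665136) read 0.0946 and 0.0536 FPKM with EtOH DMSO, 0.0187 and 0.0529 with EtOH Nec-1, 0.788 and 1.01 with 4-OHT DMSO, and 0.184 with 4-OHT Nec-1. Its 3 4-OHT libraries were above its 4 EtOH libraries, at levels about the lower limit of measurement. The same held for 30.2% of the 12702 genes tested, a set that leaves out Herc6. Herc6 reached 1 FPKM in 1 library and so failed the filter of 1 FPKM in at least 2 libraries that preceded the test. Fitted without the filter, it was higher in 4-OHT DMSO by 0.82 log2 (SE 0.072, adjusted p = 0.00904, limma), a scale on which the added 1 FPKM compresses changes of so low a gene. In that fit 4475 of 28195 genes were called in either direction.

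Usp18 went from nearly no reads to a level close to that of the E2. Usp18 (ENSMUSG00000030107) read 0.0180 and 0 FPKM with EtOH DMSO, 0.0205 and 0.178 with EtOH Nec-1, 14.4 and 20.7 with 4-OHT DMSO, and 1.22 with 4-OHT Nec-1. The log2 fold change of FPKM + 1 in 4-OHT DMSO over EtOH DMSO was 4.18 (SE 0.19, adjusted p = 0.000321, limma). Since 1 control library was listed at 0, no ratio of FPKM is given, and since Usp18 passed the filter only through its 3 4-OHT libraries, its call was favoured by the filter.

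**Figure D1:**
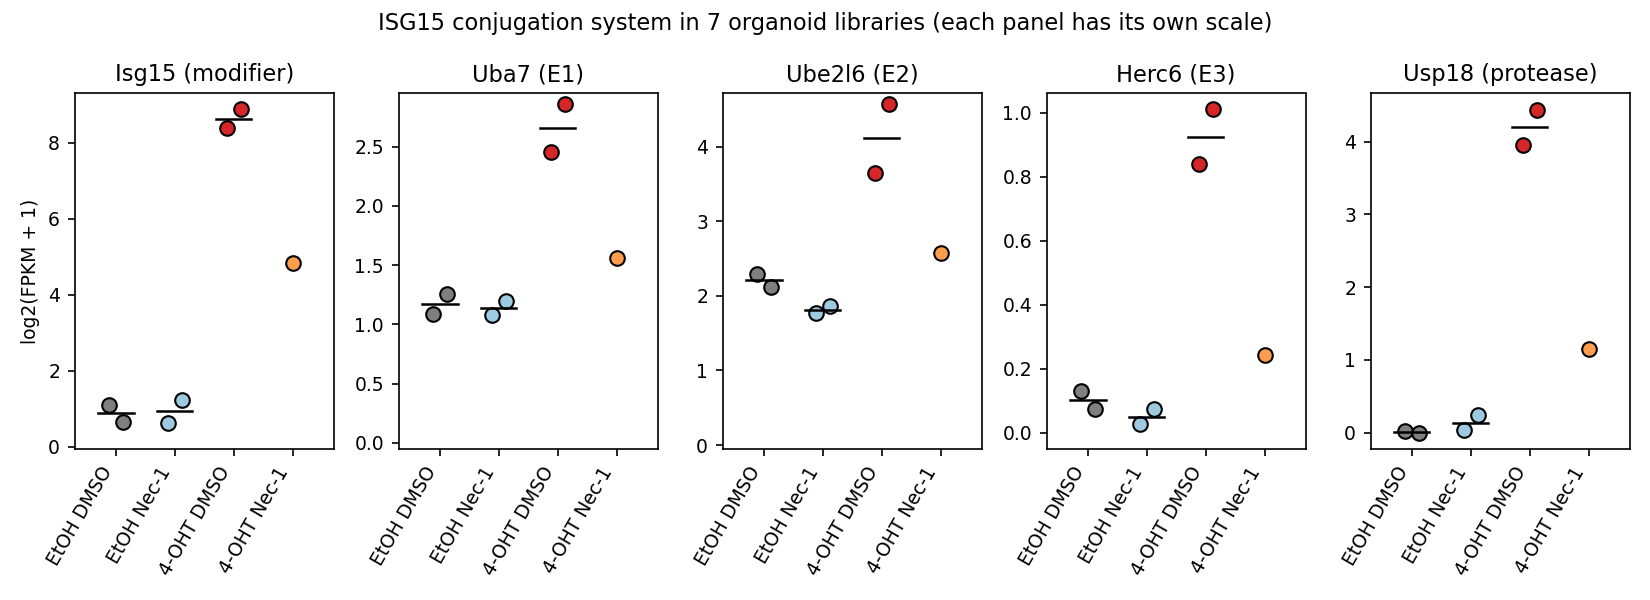
Level of the 5 genes in each library, as log2(FPKM + 1) on a separate scale per panel, by group; each point is a library and each bar the mean of 2 libraries. In every panel the 4-OHT DMSO libraries are highest, the 4 EtOH libraries lowest and the 4-OHT Nec-1 library between them.

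Across the comparison of 4-OHT DMSO with EtOH DMSO, 4 of the 5 genes passed the filter and all 4 were called higher at an adjusted p under 0.05, where 41.2% of the 12702 genes tested were called 24.5% higher and 16.7% lower. Over all genes the median log2 fold change was 0.077. Centring each library on its median moved that median to -0.080 and the share of called genes that were higher from 59.5% to 41.0%, while the 4 genes were still called higher. Over 15 or 16 alternatives per gene the log2 fold change ranged from 7.49 to 8.74 for Isg15, from 1.28 to 2.00 for Uba7, from 1.44 to 2.37 for Ube2l6 and from 3.94 to 7.32 for Usp18, all past the threshold wherever the gene was tested. All 5 genes were higher in the second 4-OHT DMSO library than in the first, by 1.29 to 1.98 times in FPKM. In bulk RNA, more responding cells and more RNA per cell cannot be told apart.

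The composition of the system changed along with its level. The 5 genes together summed to 4.11 to 6.30 FPKM in the EtOH libraries, 362 and 520 with 4-OHT DMSO, and 35.6 with 4-OHT Nec-1. Isg15 made up 10.8 to 24.2% of that sum in the EtOH libraries, where Ube2l6 was the most abundant of the 5 genes, and 91.4%, 90.2% and 76.6% in the 3 4-OHT libraries. Per 100 FPKM of Isg15 there were 1.35 and 1.33 FPKM of Uba7 with 4-OHT DMSO and 7.11 with 4-OHT Nec-1. For Ube2l6 the same ratio was 3.49 and 4.86 with 4-OHT DMSO and 18.2 with 4-OHT Nec-1, and for Herc6 0.238, 0.216 and 0.673. For Usp18 it was 4.36 and 4.41 with 4-OHT DMSO and 4.46 with 4-OHT Nec-1. The ratio of Usp18 to Isg15 thus differed little between the 3 libraries, whereas the conjugating enzymes were relatively more abundant in the library with Nec-1. This rests on 1 library with Nec-1, in which Usp18 read 1.22 and Herc6 0.184 FPKM, both low values. In the EtOH libraries the ratio was 0 to 13.4 for Usp18, so it was not constant there. It was 96.6 to 240 for Uba7, 199 to 579 for Ube2l6 and 3.35 to 9.27 for Herc6, all above the 4-OHT Nec-1 library. The pattern in the 4-OHT libraries was noticed in the values and was not tested.

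**Figure D2:**
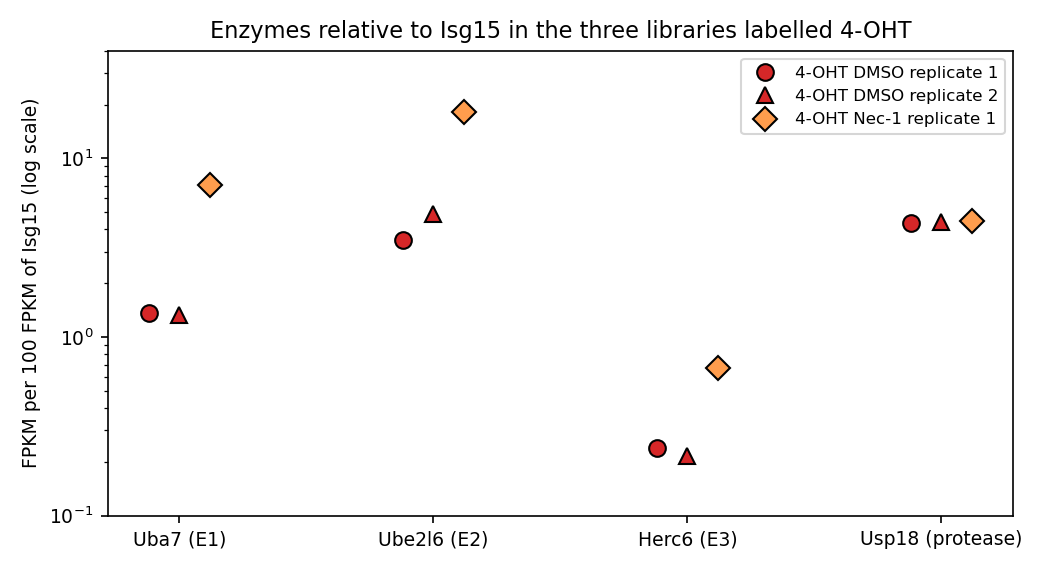
FPKM of the 4 enzymes per 100 FPKM of Isg15 (log scale) in the 2 4-OHT DMSO libraries and the 4-OHT Nec-1 library, 1 point per library. Usp18 lies between 4.36 and 4.46 in all 3, while Uba7, Ube2l6 and Herc6 are higher with Nec-1.

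Each enzyme was set beside a family of genes matched by symbol. The Ube2 and Usp matches also take in entries that are not such enzymes, among them Ube2cbp, Ube2uos, Usp6nl, Usp46os1 and Usp46os2. Among 40 genes matched as Ube2, Ube2l6 was the 26th to 29th most abundant in the EtOH libraries. It was the 20th and 6th with 4-OHT DMSO and the 27th with 4-OHT Nec-1. Usp18 moved from places 44 to 47 of 58 genes matched as Usp to places 7 and 1 with 4-OHT DMSO. It was at place 37 with 4-OHT Nec-1. Uba7 was last of 10 E1 genes in the EtOH libraries, 8th and 7th with 4-OHT DMSO and 9th with 4-OHT Nec-1. Herc6 was last of 5 HERC genes in all 7 libraries.

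The other tested genes of these families had smaller log2 fold changes between 4-OHT DMSO and EtOH DMSO than the members. Over all genes tested in this comparison, 24.5% were called higher and 16.7% lower. Of 31 other Ube2 genes tested, 8 were called higher and 2 lower, with a median log2 fold change of 0.11. The largest called rises were in Ube2o (0.92), an E2 that also acts as an E3, in Ube2n (0.67), which builds lysine-63 chains, and in Ube2q1 (0.64), and the falls were in Ube2t (-0.67), an E2 of the Fanconi pathway, and Ube2d3 (-0.41). Of 40 other genes matched as Usp, 6 were called higher, Usp6nl among them, and 8 lower (median 0.024). The largest rises were in Usp25 (0.71), Usp46 (0.69) and Usp10 (0.65) and the largest falls in Usp2 (-1.12) and Usp40 (-0.67). None of the 4 other HERC genes was called by limma with or without its trend, and 1 of them had an unadjusted p under 0.05. Of 9 other E1 genes only Mocs3 (1.10), which activates URM1 and MOCS2, was called. Centred on the library medians, the counts were 4 higher and 3 lower for Ube2, 4 and 10 for Usp, 0 and 1 for HERC and 1 and 2 for E1 genes. Single libraries decided some of these calls: Ube2t was lost without EtOH DMSO replicate 1 (adjusted p = 0.0610) and Usp40 without EtOH DMSO replicate 2 (adjusted p = 0.0648), while Ube2n and Ube2d3 were each lost under 5 of the 7 omissions (adjusted p up to 0.154 and 0.0898 by limma).

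**Figure D3:**
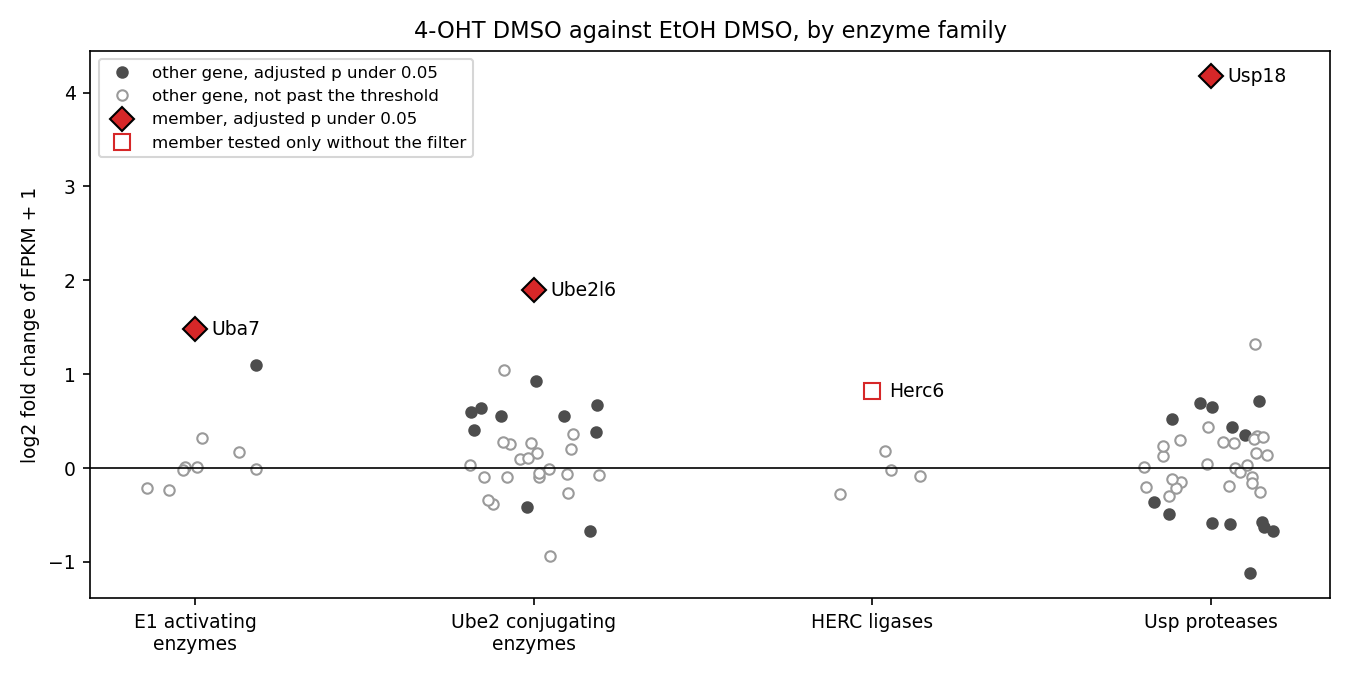
Log2 fold change of FPKM + 1 between 4-OHT DMSO and EtOH DMSO for each tested gene of 4 families matched by symbol. Diamonds are members of the ISG15 system and the open square is Herc6 fitted without the filter. Filled circles are other genes called and open circles those not called. Usp18 at 4.18, Ube2l6 at 1.90 and Uba7 at 1.49 lie above every other gene of their families.

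With EtOH, no difference between Nec-1 and DMSO passed the test in any member. In the comparison of EtOH Nec-1 with EtOH DMSO, none of the 4 tested genes was called, none had an unadjusted p under 0.05, and limma without its trend also called 0, where 0.220% of all 12702 genes were called (0.173% higher and 0.0472% lower). The log2 fold changes were 0.050 (SE 0.28) for Isg15, -0.037 (SE 0.17) for Uba7, -0.39 (SE 0.30) for Ube2l6 and 0.12 (SE 0.19) for Usp18, with adjusted p-values by limma of 0.965, 0.955, 0.609 and 0.823. Ube2l6 was below in all 4 pairings of libraries, as were 39.1% of the 12702 genes, and Usp18 above in all 4, as were 10.5%, while Isg15 and Uba7 overlapped between the groups.

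In the 4-OHT organoids, all 5 transcripts were lower in the library with Nec-1 than in either library with DMSO. There is 1 such library, so these are differences without a replicate check or a test. Isg15 stood at 6.83% of the 4-OHT DMSO mean FPKM and Usp18 at 6.94%. The enzymes of the cascade were reduced less, to 36.2% for Uba7, 29.0% for Ube2l6 and 20.4% for Herc6. On the log2(FPKM + 1) scale Isg15 was 3.55 and 4.05 below the DMSO libraries, Usp18 2.80 and 3.29, Ube2l6 1.07 and 1.99, Uba7 0.90 and 1.302 and Herc6 0.59 and 0.77 below. Isg15, Usp18 and Ube2l6 were thus at least 1 log2 unit below each DMSO library, as were 1.21% of the 12036 genes with a mean of 1 FPKM in the 3 libraries, a set that holds 4 of the 5 genes and not Herc6; 0.764% were that far above both. All 5 were below both DMSO libraries, as were 50.6% of those genes, with 24.5% above both. With a pseudocount of 0.1 or 0.25 in place of 1, all 5 genes were at least 1 log2 unit below, and without 4-OHT DMSO replicate 1, the library with the lower values, 4 were. With median centring or upper quartile scaling the count was 2, since Ube2l6 no longer reached 1 log2 unit below the first DMSO library. Outside the system, 0 of 30 Ube2, 0 of 38 Usp, 0 of 4 HERC and 0 of 9 E1 genes were that far below both DMSO libraries.

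Compared with EtOH Nec-1, the 4-OHT Nec-1 library still held more of all 5 transcripts. Isg15 was 28.9 times the EtOH Nec-1 mean, or 4.18 and 3.60 log2 units above its libraries. The differences on the same scale were 1.12 and 0.91 for Usp18, 0.81 and 0.71 for Ube2l6, 0.48 and 0.36 for Uba7 and 0.22 and 0.17 for Herc6. Only Isg15 was at least 1 log2 unit above both, as were 4.24% of the 11746 genes with a mean of 1 FPKM in these 3 libraries, which include Isg15, Uba7 and Ube2l6 and of which 1.94% were that far below. Being above both was common, at 49.9% of these genes, with 38.8% below both. Without EtOH Nec-1 replicate 2, which had the higher Usp18 value, Usp18 also passed and the count was 2. Expressed as a share of the log2 difference seen with DMSO, the difference with Nec-1 was 50.3% for Isg15, 40.1% for Ube2l6, 28.5% for Uba7, 24.3% for Usp18 and 23.5% for Herc6. These shares depend on the pseudocount and rest on 1 library, and their order was not tested.

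**Figure D4:**
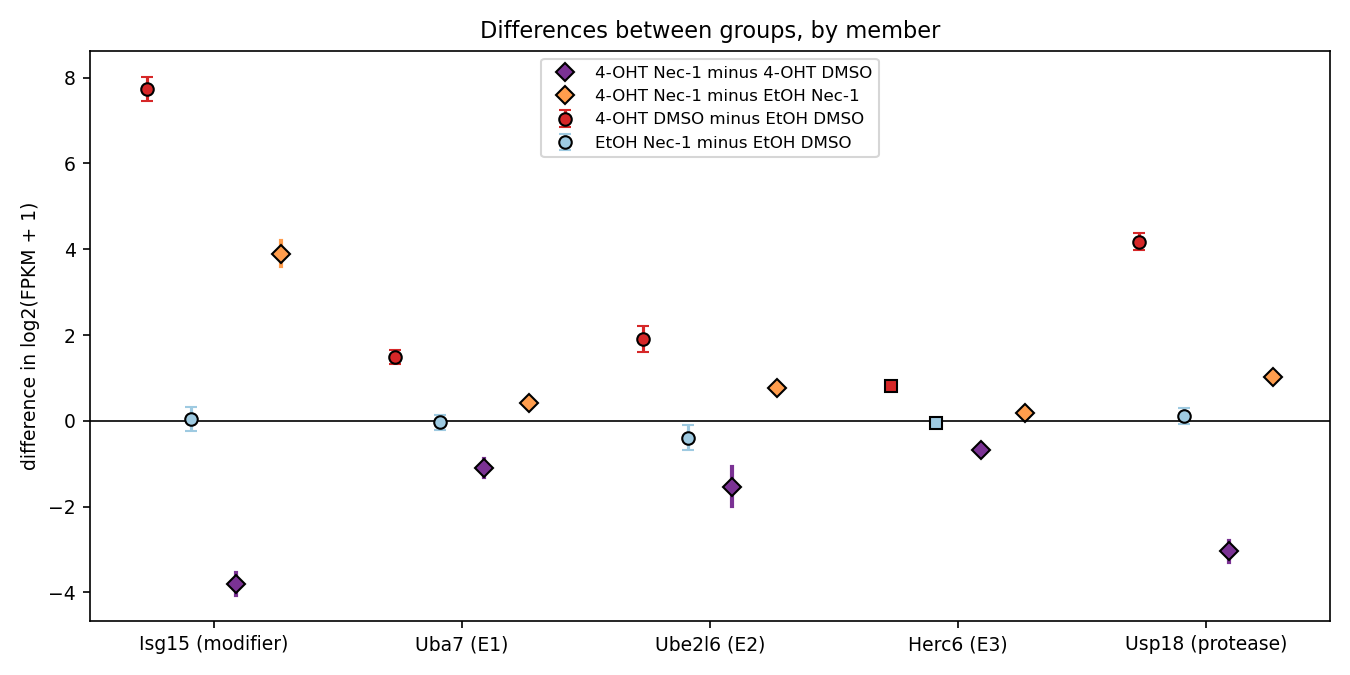
Differences in log2(FPKM + 1) for the 5 genes in the 4 comparisons. Circles carry the limma standard error (squares: Herc6, fitted without the filter), and diamonds are differences of the single 4-OHT Nec-1 library from a group mean, with lines reaching to its differences from each library. Rises with 4-OHT DMSO run from 0.82 (Herc6) to 7.75 (Isg15), and the values for EtOH Nec-1 lie near 0.

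Other genes reported to handle ISG15 changed in both directions with 4-OHT DMSO. So did all genes tested, of which 24.5% were called higher and 16.7% lower. Of 11 listed, 10 were found by symbol and 7 passed the filter, of which 2 were called higher and 1 lower (1 and 1 after median centring), with a median of 0.14. Trim25, an E3 ligase for both ubiquitin and ISG15, read 4.20 and 6.69 FPKM with EtOH DMSO, 5.63 and 14.8 with EtOH Nec-1, 53.4 and 58.2 with 4-OHT DMSO, and 32.1 with 4-OHT Nec-1. It was above Herc6 in every library and rose by 3.17 log2 with 4-OHT DMSO (SE 0.42, adjusted p = 0.00375, limma). With 4-OHT Nec-1 it was at 57.5% of the 4-OHT DMSO mean, above both EtOH Nec-1 libraries, of which the second stood apart. Arih1, a further proposed E3, differed by -0.0070 (adjusted p = 0.952). Among proteases with reported activity on ISG15, Usp2 fell by 1.12 log2 (adjusted p = 0.00222), from 2.59 and 2.99 FPKM to 0.648 and 0.837. Usp14 was higher by 0.35 (adjusted p = 0.0177 by limma), a call that 4 of the 7 single-library omissions and both scalings ended (adjusted p up to 0.112), and Usp16 was at 0.31 (adjusted p = 0.0808). The integrin subunits of the receptor for free ISG15, Itgal and Itgb2, stayed at or under 0.148 FPKM.

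Among 17 proteins reported to be modified by ISG15, 7 transcripts were called higher and 3 lower with 4-OHT DMSO (5 and 3 after median centring). Their median log2 fold change was 0.098. Of all genes tested, 24.5% were called higher and 16.7% lower before centring. Among those with the largest changes are genes that are themselves interferon-stimulated: Mx1 (2.27), an antiviral GTPase, Ddx58 (1.96), which encodes the RNA sensor RIG-I, and Eif2ak2 (1.36), which encodes the kinase PKR. Mx1 passed the filter only through its 4-OHT DMSO libraries, so its call was favoured by the filter. The 3 called lower were Mapk3 (-0.59), which encodes ERK1, Pcna (-0.49), the sliding clamp of DNA replication, and Trp53 (-0.48). Of these, Trp53 lost its call without EtOH DMSO replicate 1 (adjusted p = 0.0508), and Pcna under 4 of the 7 omissions (adjusted p up to 0.121 by limma). In the 4-OHT Nec-1 library, 3 of the 17, Mx1 and Ddx58 among them, were at least 1 log2 unit below both 4-OHT DMSO libraries. So were 1.21% of the 12036 genes compared, a set that Mx1 entered only through its 4-OHT DMSO libraries. None of the 17 was called between EtOH Nec-1 and EtOH DMSO, where 0.220% of all 12702 genes were, and 2 had an unadjusted p under 0.05.

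The genes that transmit interferon signals to the system were examined from ligand to transcription factor, in a list that shares 3 genes with the substrates, Jak1 and Irf3 among them. Of the 6 ligand genes, Ifnb1, Ifna4, Ifnl2 and Ifnl3 were listed at 0 in every library, Ifna2 reached 0.0523 FPKM and Ifng 0.0307. Of 6 receptor subunits, Ifnar2 (0.79), Ifnlr1 (0.55) and Ifngr1 (0.97) were called higher with 4-OHT DMSO and Ifngr2 (-0.56) lower, whereas Ifnar1 differed by 0.039. The shares over all genes tested were 24.5% higher and 16.7% lower. After median centring 2 subunits were higher and 1 lower. Of the kinases Jak1, Jak2 and Tyk2, only Jak2 was called, lower by 0.40 (-0.40, adjusted p = 0.0219), and it lost the call under 5 of the 7 omissions (adjusted p up to 0.0822 by limma).

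All 6 transcription factors were called higher with 4-OHT DMSO, as were 24.5% of all genes tested. Irf7, which amplifies interferon gene transcription, went from 1.85 and 1.86 FPKM with EtOH DMSO to 36.0 and 50.2 with 4-OHT DMSO and stood at 8.74 with 4-OHT Nec-1 (log2 fold change with DMSO 3.93, SE 0.18, adjusted p = 0.000321, limma). Stat2 rose by 2.28 and Irf1 by 1.65. Irf9, a DNA-binding partner of STAT2, read 1.66 and 1.85 FPKM with EtOH DMSO, 7.72 and 8.15 with 4-OHT DMSO and 8.56 with 4-OHT Nec-1. Its log2 fold change with DMSO was 1.70, and unlike the other 5 factors its level in the 4-OHT Nec-1 library was not below the DMSO libraries. Irf3 was higher by 0.37 (adjusted p = 0.0260), and 5 of the 6 factors were called after median centring. None of the 15 genes of this list that were tested was called between EtOH Nec-1 and EtOH DMSO, nor did any have an unadjusted p under 0.05. Over all 12702 genes, 0.220% were called there.

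**Figure D5:**
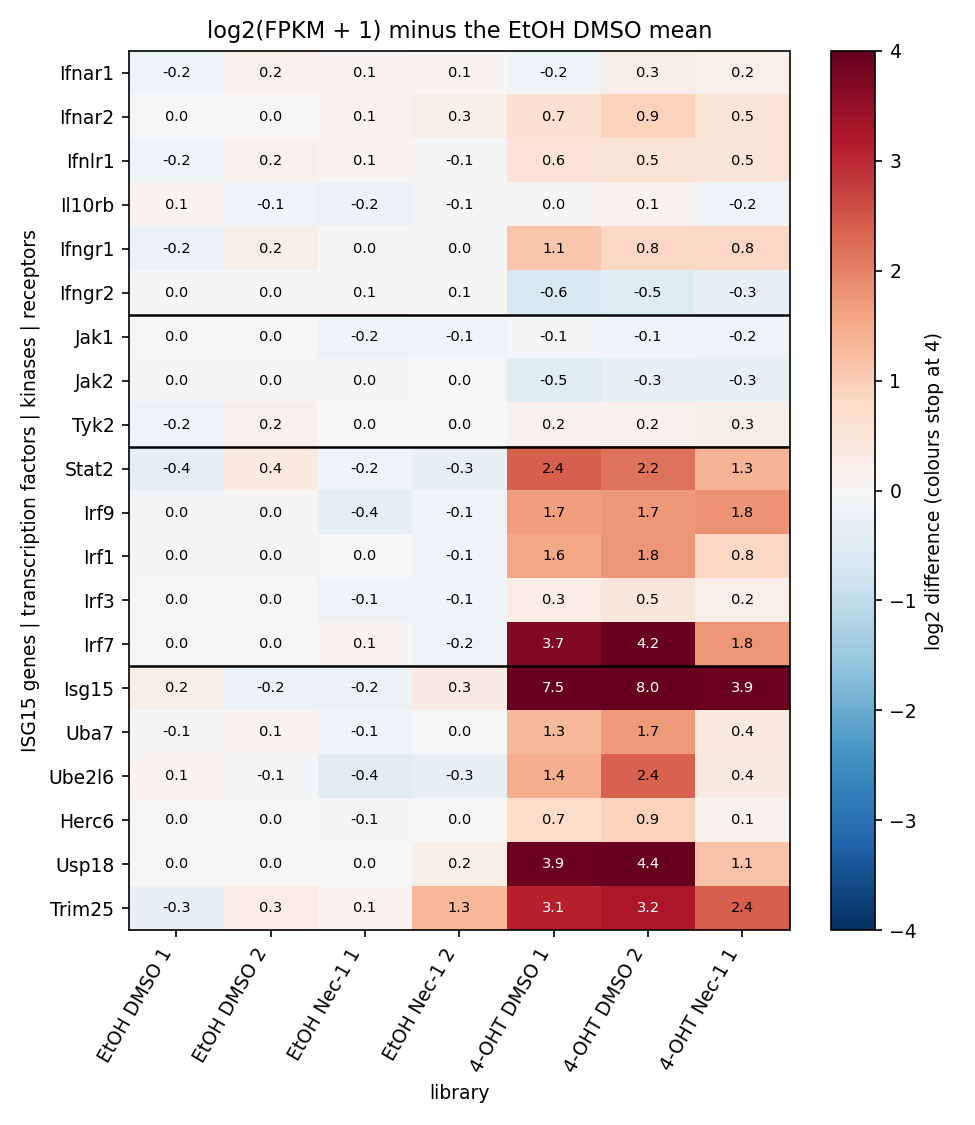
Difference of log2(FPKM + 1) from the EtOH DMSO mean in each of the 7 libraries, for interferon receptor subunits, kinases, transcription factors and the ISG15 genes with Trim25, from top to bottom; red is higher and blue lower, and colours stop at 4. Irf9 keeps its value in the 4-OHT Nec-1 library (8.56 FPKM), where Irf7, Isg15 and Usp18 are lower than with DMSO.

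Other ubiquitin-like systems showed changes in both directions with 4-OHT DMSO. So did all genes tested, of which 24.5% were called higher and 16.7% lower. Of 45 genes for modifiers such as ubiquitin, SUMO, NEDD8, UFM1 and the ATG8 proteins and for their enzymes, 44 were tested, 12 were called higher and 5 lower with 4-OHT DMSO, and the median log2 fold change was 0.12. After median centring the counts were 7 higher and 11 lower, so that their direction depended on the scaling. Ubd, which encodes the interferon- and TNF-induced modifier FAT10, rose from 0 and 0.156 FPKM to 3.46 and 3.26 (2.02 log2, SE 0.15, adjusted p = 0.000718, limma). It passed the filter only through its 4-OHT DMSO libraries, so its call was favoured by the filter. With 4-OHT Nec-1 it read 0.521, the only gene of the 44 at least 1 log2 unit below both 4-OHT DMSO libraries. Of the 12036 genes compared, 1.21% were that far below, and Ubd entered that set only through its 4-OHT DMSO libraries. Mocs3 rose by 1.10 and Urm1, the modifier it activates, by 1.11, while Ufsp1 was at 1.19 without passing the threshold (adjusted p = 0.0501). Atg12 (-0.78) and Gabarap (-0.57), both of autophagosome formation, fell, as did Fau (-0.46) and Ufsp2 (-0.39), and the calls of the last pair failed under 4 and 5 of the 7 omissions (adjusted p up to 0.0949 and 0.1002 by limma).

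The genes nearest to each member were found among the 12702 genes tested. The measure was the root mean square distance between their 7 log2(FPKM + 1) values, each relative to its own EtOH DMSO mean. For Usp18 these were Ifit3b (0.20), Oas2 (0.22) and Oas3 (0.22), all antiviral genes that interferon induces. The nearest to Ube2l6 were Il1rn (0.21), which encodes the interleukin-1 receptor antagonist, Trim34a (0.26) and Tap1 (0.26), a peptide transporter of antigen presentation, and to Uba7 they were Gm5431 (0.057), Dynap (0.12) and Ifih1 (0.12), the RNA sensor MDA5. Herc6 lay closest to Ier3 (0.076), Trim40 (0.076) and AW011738 (0.080). Nearness on this scale is not an alike change in FPKM, since the added 1 FPKM compresses changes of low genes. Between EtOH DMSO and 4-OHT DMSO, Herc6 went from 0.0946 and 0.0536 to 0.788 and 1.01 FPKM. Ier3 went from 26.9 and 25.2 to 40.1 and 46.5. Likewise, Uba7 went from 1.12 and 1.39 to 4.48 and 6.25 FPKM and Gm5431 from 0 and 0.0252 to 1.61 and 2.20. No gene came near Isg15: its closest, Slfn2, Ifi27l2a and Ifit1bl1, were 1.40, 1.43 and 1.58 log2 units away. Reads of Ifit and Oas genes may be divided between near-identical copies, so that their levels are uncertain.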

How the data were processed

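RNA-seq was performed on organoids by the authors, and the deposited values are FPKM per gene. Per the labels' processing notes, reads were handled with HISAT2 2.1.0 and StringTie 1.3.3b on mm10; the counting of strands and multiply mapped reads is not given in the sources used here. The files give FPKM and not read counts: the spacing of low values put depths at 0.853 to 1.03 of the first EtOH DMSO library, with 1.19 to 1.89% of low genes at the commonest ratio, so depth is uncertain and no counting interval is given.

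FPKM of the 12702 genes reaching 1 FPKM in 2 or more of the 7 libraries were tested as log2(FPKM + 1) with limma 3.58.1 (R 4.3.3; empirical Bayes with trend, means of 4 groups, Benjamini-Hochberg, adjusted p under 0.05). The pipeline was tested on simulated data in which every control mean lay above the control levels of Isg15, Uba7, Herc6 and Usp18. That test therefore does not bear on genes at such levels. Comparisons with the single 4-OHT Nec-1 library are differences without a test. The paper states in general that its experiments were repeated with biological replicates. It does not say whether these libraries came from separate cultures or mice, so p-values measure the spread between these libraries. Python 3.11.15 was used for the rest.

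The 5 genes and all lists were chosen with earlier results of these data known. Named genes are, per list, the 4 largest changes between 4-OHT DMSO and EtOH DMSO and all called lower; per family, the 3 largest called rises and 2 falls; and the 3 nearest genes of each member. Genes named beyond that rule were chosen after their values were seen. The E1 family pattern was corrected after the values were seen, so that it takes in E1 genes alone. The Ube2 and Usp patterns take in other entries as well. Some items of the lists are counted there and are not reported here by name. Alternatives were 2 scalings, 2 filters, pseudocounts of 0.1 and 0.25, limma without trend, the 4 libraries alone, a replicate block and omission of each library.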

Additional observations from a re-analysis of the deposited data

Results flagged for a closer look

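The Usp18 values with Nec-1 lay on opposite sides of those with DMSO in the EtOH and the 4-OHT organoids. With EtOH, both Nec-1 libraries were above both DMSO libraries, by 0.12 log2 on average (0.0205 and 0.178 against 0.0180 and 0 FPKM), a difference that did not pass the limma test (SE 0.19, adjusted p = 0.823) and was 0.016 without EtOH Nec-1 replicate 2. The single 4-OHT Nec-1 library was below both 4-OHT DMSO libraries, by 3.04 log2 on average (-3.04), with no test. The difference between these 2 responses was not tested, and the EtOH values lie near the lower limit of measurement.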

How the results depend on the processing

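The number of members called higher with 4-OHT DMSO was 4 in 14 of 16 alternatives, 5 without the filter, which admits Herc6, and 2 when 1 FPKM was required in every library, which by construction removes Isg15 and Usp18. No member was called between EtOH Nec-1 and EtOH DMSO in any of 16 alternatives. The count of all genes called in that comparison was 28 and moved to 8 without the filter, 79 with the 4 libraries alone, 43 with upper quartile scaling, and between 9 and 75 when 1 library was left out; the cause was not tested. Uncalled values near 0 changed sign there: Uba7 (-0.037) became 0.062 with median centring and 0.023 with upper quartile scaling, and without 1 library it ranged from -0.12 to 0.048 (0.022 and 0.048 where it changed sign), while Isg15 (0.050) ranged from -0.24 to 0.34 (-0.17 and -0.24 where it changed sign). Members at least 1 log2 unit below both 4-OHT DMSO libraries numbered 3, 5 with either smaller pseudocount, 2 with either scaling, and 3 to 4 without 1 library; those above both EtOH Nec-1 libraries numbered 1, 2 with either smaller pseudocount and 1 to 2 without 1 library. Same-numbered replicates did not deviate together (correlations across genes -0.040 to 0.0065). With the number as a replicate block, 4 and 0 members were called, and adjusted p-values by limma were 0.00132 for Isg15, 0.00379 for Uba7, 0.0108 for Ube2l6 and 0.00146 for Usp18; over all genes 4697 were called in place of 5237, and 19 in place of 28. FPKM without read counts limits what can be said of Herc6 and of Usp18 in the controls.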
